A study of Mus musculus with 6 samples.

Results

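The immunoglobulin heavy variable (Ighv) genes encode the variable part of the antibody heavy chain. All gene symbols beginning with Ighv in any of the 6 libraries were taken, which gave 120 of the 20279 genes listed in at least 1 library. GENCODE M21 places each of the 120 on chromosome 12 of GRCm38, and it annotates 100 as functional variable genes and 20 as pseudogenes. It annotates 113 functional variable genes and 70 pseudogenes of this family in all.

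Single-cell cDNA of 6 libraries was sequenced with Nanopore long reads. The labels give spleen, female mice and an age of 10 weeks for all of them, and the strain is C57BL/6 according to the series text. Each of 3 protocols had 2 libraries, called replicates 1 and 2. The 3′ kit joins the cell barcode at the poly(A) end of a transcript, and the 5′ kit joins it at the template-switch end, next to the variable segment of an antibody transcript. The modified 5′ protocol supplemented both the reverse transcription and the amplification with 1 µl of 10 mM dNTP. Its reverse transcription was extended from 45 min to 2 h and its amplification step from 1 min to 3 min. For all replicate 2 libraries the described extraction is one of pancreatic islets, which goes against their spleen label. Separate animals are not stated for the replicates, and p-values therefore reflect library-to-library spread, possibly technical.

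A developing B cell joins a single variable segment to a diversity and a joining segment on the heavy-chain locus, and the rearranged segment is transcribed together with a constant gene such as Ighm. The same is then done at a light-chain locus (Igk or Igl). Allelic exclusion leaves most B cells with a single productive heavy chain, so that each mature B cell is known for using a single heavy variable gene, while a spleen as a whole uses many. Plasma cells, the antibody-secreting end stage of the lineage, carry far more antibody mRNA than resting B cells. T cells do not rearrange the heavy-chain locus productively and serve here as cells that should lack these transcripts.

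The 6 genes with the highest mean usage are shown first, because the results turn on them and because their likeness bears on how counts can be assigned. The sequences are the last 120 coding bases of each reference gene, read 5′ to 3′ on the minus strand from GENCODE M21 transcripts of GRCm38. Capitals mark the codon of the last in-frame cysteine, the residue just before the third hypervariable loop, where the diversity segment is joined. The genes lie at chr12:115912344-115912776 (Ighv1-80), chr12:114583569-114584002 (Ighv1-9), chr12:115507545-115508031 (Ighv1-64), chr12:114788372-114788805 (Ighv1-26), chr12:114288152-114288582 (Ighv3-6) and chr12:115294062-115294504 (Ighv8-8).
Ighv1-80: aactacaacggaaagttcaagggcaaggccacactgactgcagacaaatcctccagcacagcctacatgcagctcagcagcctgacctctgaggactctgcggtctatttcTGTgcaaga
Ighv1-9: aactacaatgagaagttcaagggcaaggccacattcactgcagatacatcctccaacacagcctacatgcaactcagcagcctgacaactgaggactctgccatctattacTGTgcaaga
Ighv1-64: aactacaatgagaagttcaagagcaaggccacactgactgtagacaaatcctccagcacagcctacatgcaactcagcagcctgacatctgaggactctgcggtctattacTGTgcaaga
Ighv1-26: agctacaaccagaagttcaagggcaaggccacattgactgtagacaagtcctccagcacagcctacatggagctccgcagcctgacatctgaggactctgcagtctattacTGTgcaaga
Ighv3-6: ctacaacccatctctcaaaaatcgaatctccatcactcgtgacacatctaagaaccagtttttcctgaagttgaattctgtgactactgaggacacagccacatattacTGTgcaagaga
Ighv8-8: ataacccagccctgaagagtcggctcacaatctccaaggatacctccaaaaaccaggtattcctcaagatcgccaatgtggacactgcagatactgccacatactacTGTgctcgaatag
The 4 Ighv1 genes share long runs of bases up to the cysteine codon, while Ighv3-6 and Ighv8-8, of other families, differ along the whole stretch. Reads can be assigned to these genes only through such differences.

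Many members have a close relative. Over their coding sequences, 52 of the 120 members had another annotated Ighv gene at 95% identity or more and 88 had one at 90% or more, and the median identity to the nearest relative was 94.6%. Ighv1-62-2 and Ighv1-71 were the most alike, at 99.7%. Ighv1-72 (chr12:115757984-115758461), the dominant heavy variable gene of the C57BL/6 response to the hapten NP, and Ighv1-62-3 (chr12:115460999-115461485) differ at 3 of 351 coding bases. The first 150 coding bases of both are shown, with the 2 differing bases of this stretch in capitals.
Ighv1-62-3: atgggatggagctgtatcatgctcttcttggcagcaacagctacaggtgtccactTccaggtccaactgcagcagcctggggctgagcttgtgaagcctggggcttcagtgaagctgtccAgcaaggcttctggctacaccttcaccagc
Ighv1-72: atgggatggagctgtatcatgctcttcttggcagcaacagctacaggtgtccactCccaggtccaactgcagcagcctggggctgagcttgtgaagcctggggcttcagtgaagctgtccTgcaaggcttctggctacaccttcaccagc
The counts of Ighv1-72 and Ighv1-62-3, and those of Ighv1-71 and Ighv1-62-2, are therefore uncertain between the copies. By contrast Ighv1-80 and Ighv1-9, the leading pair by usage, differ at 42 of 351 bases. Capitals mark the 25 differing bases of coding positions 129 to 278, a stretch chosen for holding many of them.
Ighv1-80: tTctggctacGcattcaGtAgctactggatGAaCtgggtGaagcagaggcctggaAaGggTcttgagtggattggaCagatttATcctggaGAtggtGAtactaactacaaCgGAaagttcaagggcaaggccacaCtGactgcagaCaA
Ighv1-9: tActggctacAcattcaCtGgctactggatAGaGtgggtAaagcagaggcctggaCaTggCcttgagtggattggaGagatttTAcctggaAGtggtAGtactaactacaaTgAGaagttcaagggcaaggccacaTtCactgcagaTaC
The differences between Ighv1-80 and Ighv1-9 are spread over the whole stretch. Ighv1-80 has a closer relative in Ighv1-82, at 95.4% identity.

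Depth limited every value below. Total counts ranged from 723341 to 2627253 per library, and 861 to 4045 cells per library were kept, by a minimum of 200 genes and a limit of 20% on mitochondrial counts. Standard 5′ replicate 1 stood apart with the fewest kept cells and the shallowest (median 332 counts, against 482.5 to 606 elsewhere). Haemoglobin genes took 13.4% to 22.3% of all counts in the replicate 1 libraries and 0.319% to 0.524% in the replicate 2 libraries. B cells were gated by a summed count of Cd79a, Cd79b (both signalling chains of the B cell receptor) and Ms4a1 (CD20) of at least 2, which took 362 to 2085 cells per library. Each of 11 further B cell genes, among them Pax5, Ebf1 and Bank1, was seen in a larger share of B-gated than of T-gated cells in all 6 libraries. Pancreatic marker genes gave 82 counts in modified 5′ replicate 2 and 3 to 7 in each of the other libraries. Of the 82, 63 were insulin counts (Ins1 and Ins2), and each other library had 0 of these, the other replicate 2 libraries included. Libraries of the same kit shared 5 to 16 cell barcodes and libraries of different kits 0 or 1.

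Heavy variable genes were rare in every library and were highest in the 3′ libraries. Kept cells held 494 and 922 Ighv counts in the 3′ replicates 1 and 2, 37 and 329 in standard 5′ and 184 and 351 in modified 5′. As CPM, counts scaled to the same total in each library, this was 283 and 373 in 3′, 101 and 170 in standard 5′ and 154 and 167 in modified 5′. Both 3′ libraries lay above all 4 of the 5′ libraries, and the standard and modified 5′ values overlapped. The means were 328 ± 63.5 CPM for 3′, 135 ± 48.5 for standard 5′ and 160 ± 9.55 for modified 5′ (SD, n = 2 libraries). Summed counts alone do not separate fewer cells of a type from less RNA per cell. B-gated cells were 50.7% and 51.55% of kept cells in 3′, 42.0% and 57.1% in standard 5′ and 57.4% and 58.7% in modified 5′. Per 100 B-gated cells there were 34.7 and 30.5, 8.01 and 16.2, and 14.7 and 17.1 Ighv counts. The cause of the difference was not tested.

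The log2 ratio of the CPM means was -1.28 for standard 5′ against 3′ (-1.48 within replicate 1 and -1.14 within replicate 2) and -1.03 for modified 5′ against 3′ (-0.88 and -1.16). Modified against standard 5′ gave 0.24, with 0.60 within replicate 1 and -0.02 within replicate 2, less than the spread between replicates of 0.35 (pooled SD on the log2 scale). No p-value is given for these sums, and with 2 libraries against 2 an exact permutation test could not go below 0.33 (two-sided). The order of the libraries was 3′ replicate 2 (exact 95% Poisson interval 349 to 398 CPM), 3′ replicate 1 (259 to 309), standard 5′ replicate 2 (152 to 189), modified 5′ replicate 2 (150 to 185), modified 5′ replicate 1 (132 to 177) and standard 5′ replicate 1 (71.2 to 139). The intervals of the last 4 libraries overlap between neighbours, and those of the 3′ libraries overlap neither each other nor the rest. Intervals cover counting error only. With library sizes rescaled by TMM factors, which were above 1 in both 3′ libraries and below 1 in the others, the difference from 3′ narrowed to -0.89 for standard and -0.67 for modified 5′, in the same direction.

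**Figure D1:**
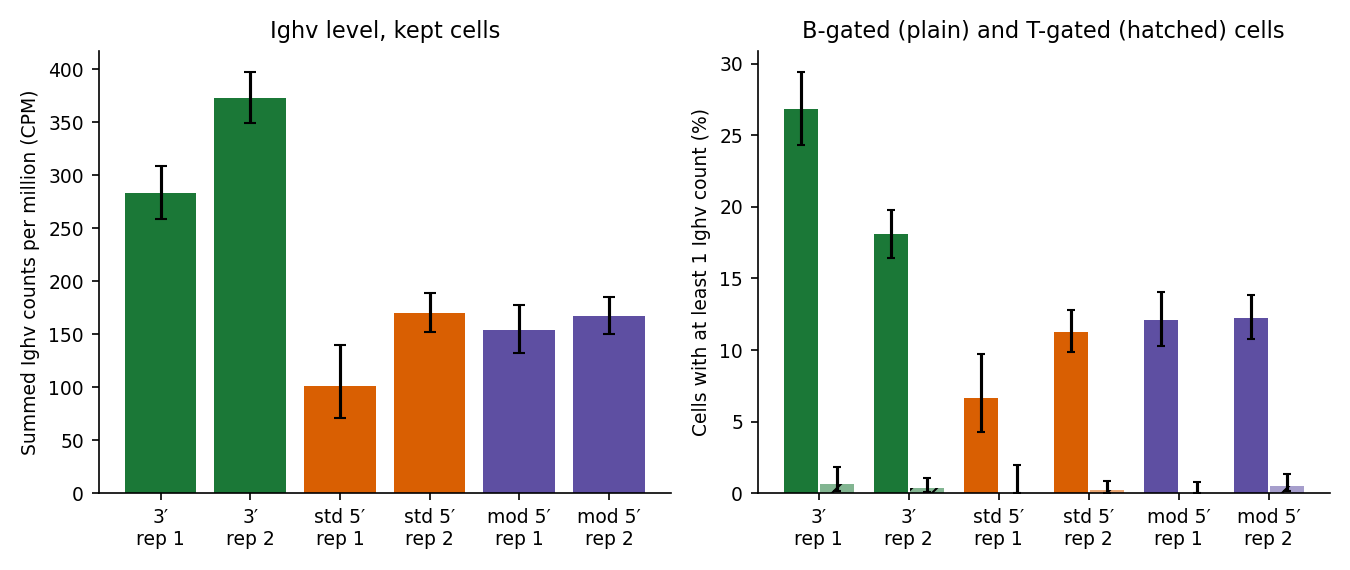
Left, summed Ighv level (CPM) in the kept cells of each library, with exact 95% Poisson intervals. Right, percentage of B-gated (plain) and T-gated (hatched) cells with at least 1 Ighv count, with exact 95% binomial intervals; the 3′ libraries are highest in both panels, and T-gated cells stay at or below 0.637%.

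The Ighv counts sat in cells with B lineage markers. B-gated cells held an Ighv count in 26.8% and 18.1% of cells in the 3′ replicates, 6.63% and 11.3% in standard 5′ and 12.1% and 12.3% in modified 5′. T-gated cells (Cd3d, Cd3e, Cd3g and Trac summing to at least 2, with no B marker) did so in 0.637% and 0.363%, 0% and 0.239%, and 0% and 0.533%. Every B cell share was more than the T cell share of its own library, and the T cells were not shallower except in standard 5′ replicate 1, with medians of 315 to 726 counts per T cell and 351.5 to 560 per B cell. By a limit of 3 counts, the 0 of 184 T cells in standard 5′ replicate 1 allow a share of up to 1.63%, and the 0 of 455 in modified 5′ replicate 1 up to 0.659%. The upper ends of their exact 95% binomial intervals are 1.985% and 0.8075%. Together the B gate and the plasma gate (Jchain, the joining chain of secreted IgM and IgA, at least 5 counts, and Mzb1, Xbp1, Derl3, Tnfrsf17, Prdm1 and Sdc1 at least 2 in sum) held 88.9% to 97.8% of the Ighv counts of a library.

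The share of cells with an Ighv count climbed with the first B marker count. In 3′ replicate 1 it was 1.25% at a marker sum of 0, 19.4% at 1, 25.2% at 2 and 27.2% at 3 or more. In modified 5′ replicate 2 the same steps gave 0.845%, 9.80%, 16.3% and 12.0%. In all 6 libraries the share at a sum of 1 was above that at 0, so cells below the gate also carried these transcripts. Thinned to 300 counts per cell, B cell shares were 14.9% and 10.8% in 3′, 4.27% and 6.98% in standard 5′ and 7.33% and 6.77% in modified 5′, after 9 to 142 shallower B cells per library were left out. Those left out were 110 of 362 B cells in standard 5′ replicate 1, against 9 of 1182 and 142 of 2085 in 3′. The thinned cells are therefore a differently selected set in that standard 5′ library. The 3′ libraries stayed above the 5′ libraries at this equal depth. Cd79a and Cd79b, which set the gate, were themselves higher in the 5′ libraries over all kept cells (log2 fold changes 1.14 ± 0.24 and 0.99 ± 0.25 in standard and 1.13 ± 0.24 and 1.00 ± 0.25 in modified against 3′, edgeR quasi-likelihood test, adjusted p 0.0115, 0.0231, 0.0143 and 0.0263), so the gate need not take the same cells in each protocol. With a marker sum of at least 3 the differences from 3′ kept their direction and moved by less than the spread between replicates.

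The Ighv counts were few beside those of the heavy-chain constant genes. Per 100 counts of the 8 constant genes (Ighm, Ighd, Igha, Ighe and the Ighg genes), the kept cells held 9.28 and 4.39 Ighv counts in 3′, 1.43 and 1.81 in standard 5′ and 2.02 and 1.67 in modified 5′. The log2 ratio of the means was -2.08 for standard 5′ and -1.89 for modified 5′ against 3′, with -2.70 and -1.28, and -2.20 and -1.39, within replicates 1 and 2. In the plasma gate the 3′ libraries lay close to each other, at 3.44 and 3.30 Ighv counts per 100 constant counts, against 0.630 and 0.914 in standard and 0.698 and 0.686 in modified 5′. B cells outside the plasma gate gave 11.8 and 6.75, 2.61 and 3.55, and 3.92 and 3.39. In each of these cell sets both 3′ libraries were above all 5′ libraries. Ighm, the constant gene of IgM, went the other way in level, at 2171 and 6413 CPM in 3′, 6667 and 7835 in standard 5′ and 5114 and 8063 in modified 5′, with replicate 2 of 3′ overlapping the 5′ range.

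Other receptor variable families did not all share the order. Kappa variable (Igkv) genes summed to 196 and 274 CPM in 3′, 92.9 and 149 in standard 5′ and 133 and 166 in modified 5′, so that the 3′ libraries were again highest. The lambda variable (Iglv) genes overlapped between protocols, at 125 and 214, 123 and 218, and 311 and 151 CPM. The highest of these rests largely on a single plasma gate barcode, with 216 Iglv1 counts of the 373 Iglv counts of modified 5′ replicate 1. Single barcodes also gave 112 of 422 in standard 5′ replicate 2 and 60 of 529 in 3′ replicate 2. T cell receptor alpha variable (Trav) genes summed to 83.03 and 75.6, 71.1 and 58.3, and 70.9 and 73.8 CPM, and beta variable (Trbv) genes to 69.9 and 63.1, 65.6 and 61.4, and 47.6 and 56.2 CPM. Both 3′ libraries were again highest in Trav, by a small margin, and the protocols overlapped in Trbv. The difference between families was not tested.

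Of the 120 members, 118 had a count in a kept cell, 12 were seen in all 6 libraries and 19 in 1 library. The median member had 8.5 counts over all libraries, 58 members had 10 or more and 35 had 1 to 3. The libraries held 88 and 102 members in 3′, 22 and 73 in standard 5′ and 59 and 74 in modified 5′. Drawn down to the 184 counts of modified 5′ replicate 1, the expected number of members was 65.4 and 55.9 in 3′, 59.5 in standard 5′ replicate 2 and 59.0 and 59.2 in modified 5′. At equal counts the 5 deeper libraries thus lay close together. The 20 pseudogenes held 38 of the 2317 counts (1.64%), and Ighv1-2 had the most of them, at 7.

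Usage was measured as a gene's share of its library's Ighv counts and averaged over the 6 libraries with equal weight. The 20 highest members held 57.4% of the mean usage, and ranks 20 and 21 (Ighv6-3 and Ighv8-12) were close, at 1.37% and 1.36%. Standard 5′ replicate 1 has 37 Ighv counts, so a single barcode moves its shares and through them the means.

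Ighv1-80 had the highest mean usage, 6.76%. Its counts were 7 and 71 in 3′, 7 and 30 in standard 5′ and 1 and 10 in modified 5′, or 1.42% and 7.70%, 18.9% and 9.12%, and 0.543% and 2.85% of the library. A single barcode gave 37 of the 71 and 5 of the 7 counts in 3′ replicate 2 and standard 5′ replicate 1, so its first place rests on few cells. A B cell outside the plasma gate was said to be led by its Ighv gene with the most counts, with ties shared, and cells led are counted over these cells alone. By its mean share of led cells Ighv1-80 had rank 9, with 23.5 cells.

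Ighv1-9 followed with 4.56%, from 12 and 75 counts in 3′, 0 and 12 in standard 5′ and 20 and 8 in modified 5′. Its 75 counts included 41 from a barcode in the plasma gate, the most Ighv counts of any barcode. Ighv1-64 had 4.32%, from 21 and 45, 1 and 9, and 13 and 15 counts, and it had rank 2 by mean share of cells led, with 46.0 cells. Ighv1-26 had 3.92%, from 30 and 57, 0 and 12, and 3 and 21 counts, and led the most cells, 58.5. All 3 genes were seen in every library, except that standard 5′ replicate 1 had no count of Ighv1-9 or Ighv1-26.

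Ighv3-6 had a mean usage of 3.72%, from 33 and 24, 0 and 15, and 14 and 3 counts, with 20 of the 33 in 3′ replicate 1 from a single barcode. Ighv8-8 had 3.68%, from 9 and 45, 1 and 27, and 3 and 10 counts, with 19 of the 27 in standard 5′ replicate 2 from a single barcode. Ighv9-3 was spread more evenly, with 3.40% from 17 and 14, 2 and 12, and 6 and 11 counts, no more than 3 from any barcode, and it ranked first by mean share of cells led (4.69%). Ighv1-75 reached 3.32% only through 6 counts of a single barcode in standard 5′ replicate 1 (16.2% of that library) and was at most 1.14% elsewhere. The other 12 members of the leading 20 (Ighv1-50, Ighv1-82, Ighv1-81, Ighv1-53, Ighv5-4, Ighv5-9-1, Ighv1-78, Ighv5-17, Ighv2-5, Ighv1-55, Ighv1-15 and Ighv6-3) had mean usages from 2.60% down to 1.37%. By cells led, 17 of the 20 were again among the leading 20.

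**Figure D2:**
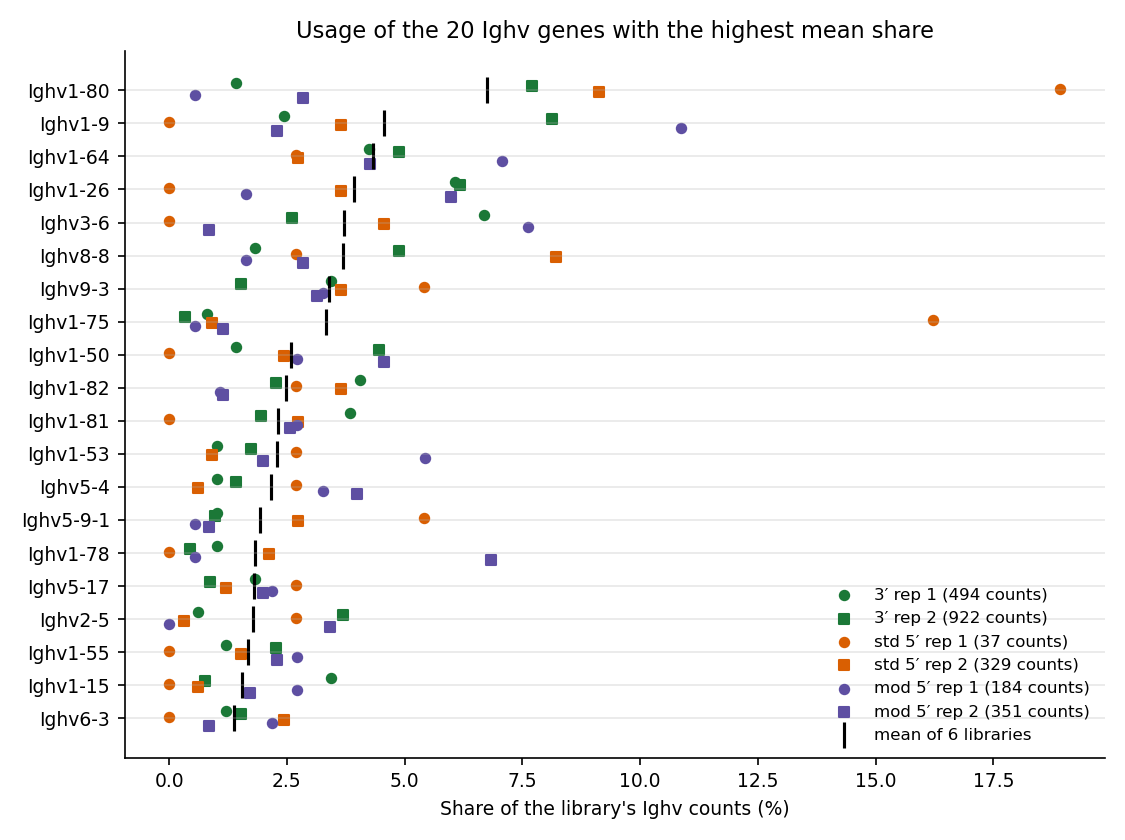
Share of each library's Ighv counts (horizontal axis, percent) for the 20 members with the highest mean share, with colour for the protocol, circles for replicate 1, squares for replicate 2 and a black bar for the mean of 6 libraries. Standard 5′ replicate 1, with 37 counts, lies farthest right for Ighv1-80 (18.9%) and Ighv1-75 (16.2%).

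Single barcodes carried much of several genes. In 9 pairs of a gene and a library, a gene with at least 20 counts took at least 50% of them from a single barcode. These were Ighv3-6 in 3′ replicate 1 (60.6%), Ighv8-8 in standard 5′ replicate 2 (70.4%) and, in 3′ replicate 2, Ighv1-80 (52.1%), Ighv1-9 (54.7%), Ighv1-82 (61.9%), Ighv1-12 (62.1%), Ighv1-55 (76.2%), Ighv1-74 (80.95%) and Ighv2-5 (85.3%). Ighv1-12 had 58 counts in 3′ replicate 2 and 3 in the other libraries together. The usage of such genes by counts describes a few antibody-rich cells more than the number of B cells using the gene.

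The 5 members chosen for a known role in mouse B cells were rare. Ighv5-2, the variable gene used often in fetal and newborn B cells, had 0 and 5 counts in 3′, 0 and 2 in standard 5′ and none in modified 5′. Ighv11-2 and Ighv12-3, known from B-1 cells that bind phosphatidylcholine, had 3 and 3, 0 and 0, and 1 and 2 counts, and 2 and 1, 0 and 0, and 0 and 1 counts. Ighv7-1, the gene of the classical antibodies to phosphorylcholine, had 3 and 0, 0 and 4, and 0 and 0 counts. Ighv1-72 was the most used of them, with 12 and 12, 0 and 7, and 1 and 1 counts and a mean usage of 1.11%, with the limit from Ighv1-62-3 given above. The floor of 3 counts was 1.21 to 8.20 CPM per library, so a 0 in these libraries is not absence.

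By family, Ighv1 (61 members, known as the J558 family) held 57.8% of the mean usage, against 53 of the 113 functional genes annotated (46.9%). Its share was 57.1% and 67.9% in 3′, 51.4% and 53.8% in standard 5′ and 53.8% and 62.7% in modified 5′. By cells led it held 53.2%. Ighv5 followed with 9.14%, Ighv2 with 7.20%, Ighv8 with 7.16%, Ighv3 with 4.59% and Ighv9 with 4.24%, and the remaining 9 families took at most 2.54% each. Ighv3 had 7.89% and 3.58% in 3′, 0% and 4.86% in standard 5′ and 10.3% and 0.855% in modified 5′. In both 3′ libraries the Ighv1 share was higher and the Ighv5 share (6.68% and 6.51%) lower than in both standard 5′ libraries, but the exact 95% binomial intervals of 3′ replicate 1 and standard 5′ replicate 2 overlap in both families (52.6% to 61.5% and 48.3% to 59.3% for Ighv1, 4.64% to 9.25% and 5.23% to 11.4% for Ighv5).

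Usage ran along the whole locus. The members were placed by their distance from the Ighv gene nearest the diversity segments, which is the end known for frequent use in early B cells. Bins of 500 kb held 19.2%, 16.9%, 19.4%, 19.6% and 23.8% of the mean usage from the near to the far end, with 24, 24, 18, 18 and 16 members. Without standard 5′ replicate 1 the same bins held 16.5%, 18.1%, 22.2%, 21.9% and 19.95%, so which bin held the most rests on that library. Single libraries ranged from 13.9% to 32.4% in the nearest bin and from 12.0% to 43.2% in the farthest, with the highest of both in standard 5′ replicate 1. Ighv5 and Ighv2 lie mostly in the nearest bin, and the Ighv1 genes fill the far part of the locus.

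**Figure D3:**
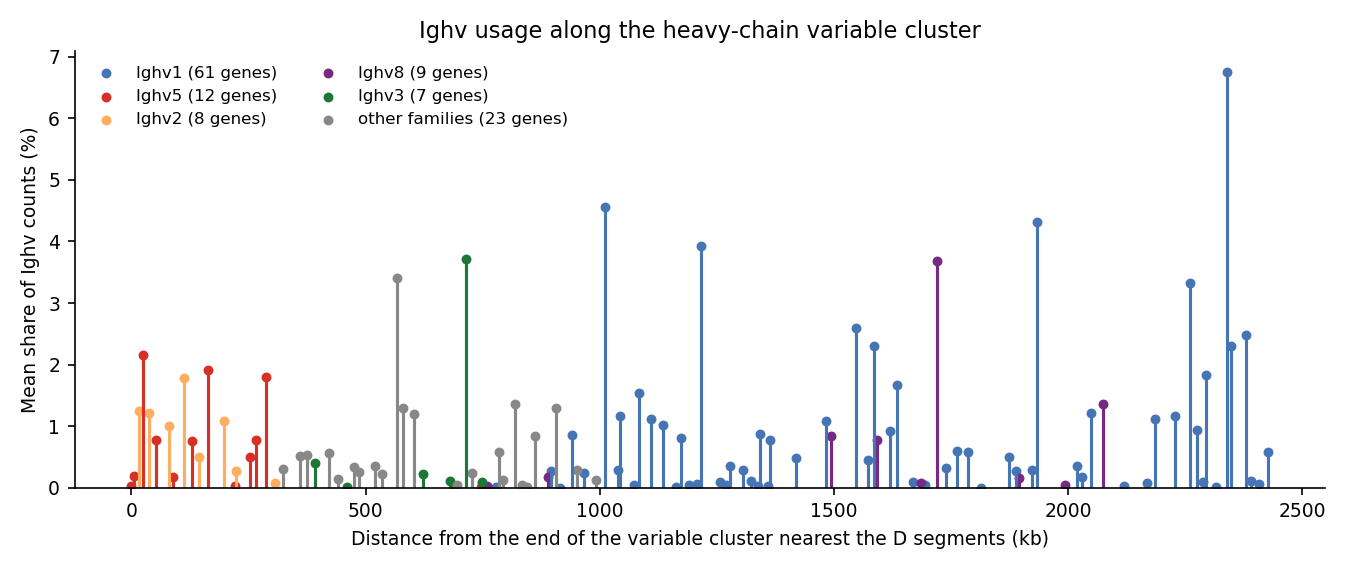
Mean share of Ighv counts (vertical axis, percent) of each of the 120 members against its distance in kb from the variable gene nearest the diversity segments, coloured by family. The 8 members above 3% lie at 568 kb or farther, and many members with little or no usage lie between them.

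Usage was similar between libraries only in part. Across the 120 members, Pearson's r of the count shares was 0.496 between the 3′ replicates, 0.486 between the standard 5′ replicates and 0.406 between the modified 5′ replicates, against 0.0622 to 0.696 between libraries of different protocols. By cells led, over B cells outside the plasma gate, r was 0.757 between the 3′ replicates, 0.310 between the standard 5′ replicates and 0.563 between the modified 5′ replicates. Values with standard 5′ replicate 1 were the lowest by cells led, 0.119 to 0.323. The values within a protocol lie inside the range of those between protocols. These are descriptions across genes, which are not independent replicates.

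Within a cell, Ighv counts mostly came from a single gene. Of B cells outside the plasma gate, 62 and 39 had at least 2 Ighv counts in 3′, 1 and 14 in standard 5′ and 12 and 26 in modified 5′. All counts were from a single gene in 44 and 28, 1 and 11, and 10 and 17 of them, or 111 of 154 cells in all (72.1%). By pairs of counts, 65.4% to 100% of the pairs within a cell were of the same gene, against 1.49% to 2.07% of pairs drawn from different cells of the same library. The share within cells was above the share between cells in all 6 libraries.

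The other 43 B cells held more than 1 Ighv gene. The median identity of their genes was 63.2%, within the range of the library medians for pairs from different cells (61.0% to 66.2%), and 4 of the 43 pairs were at 90% identity or more. The closest was Ighv1-62-3 with Ighv1-72 in 3′ replicate 1, with 1 count each, the near-identical pair shown above. In 1 of the 43 cells a T cell gene was also counted. Barcodes with B and T markers both at 2 or more, which can only mark some doublets, numbered 9 and 38 in 3′, 6 and 25 in standard 5′ and 11 and 22 in modified 5′. The part of doublets, free RNA and read assignment in the cells with more than 1 gene was not tested.

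**Figure D4:**
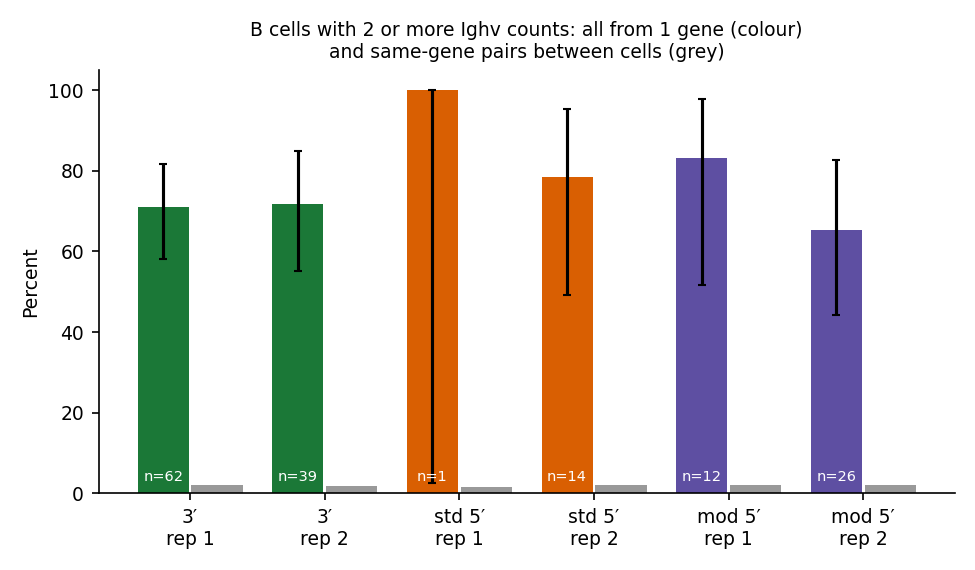
For each library, the coloured bar gives the percentage of B cells outside the plasma gate with at least 2 Ighv counts (n in the bar) whose counts all came from 1 gene, with exact 95% binomial intervals. The grey bar gives the percentage of pairs of Ighv counts from different cells that were of the same gene, 1.49% to 2.07%.

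Plasma gate barcodes also mostly held a single heavy variable gene. The gate held 3 and 31 barcodes in 3′, 7 and 20 in standard 5′ and 11 and 23 in modified 5′, and 88 of the 95 had an Ighv count. Of the 71 with at least 2 counts, 61 (85.9%) had counts of a single gene, at 1 of 3 and 25 of 29 in 3′, 1 of 1 and 10 of 13 in standard 5′ and 7 of 7 and 17 of 18 in modified 5′. The difference from the other B cells was not tested, and in 3′ replicate 1 and standard 5′ replicate 2 the plasma gate share (33.3% and 76.9%) was the lower one (71.0% and 78.6% in the other B cells). That share can fall as the counts per barcode rise. By pairs of counts within a barcode, the plasma gate was the higher one in both libraries, at 86.2% and 92.0% against 72.6% and 78.6%. Ighm led the constant genes in 78 barcodes, an Ighg gene in 13 and Igha in 4, and 37 different Ighv genes led the barcodes. The median Ighv count per barcode was 17 and 13 in 3′, 1 and 4 in standard 5′ and 2 and 4 in modified 5′, with constant counts of 466 and 418, 215 and 591, and 481 and 642. The 3′ barcodes thus had the highest Ighv counts without having the highest constant counts. Although 0.129% to 0.813% of the kept cells, these barcodes held 10.1% and 49.2% of the Ighv counts in 3′, 24.3% and 32.8% in standard 5′ and 19.6% and 26.5% in modified 5′.

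**Figure D5:**
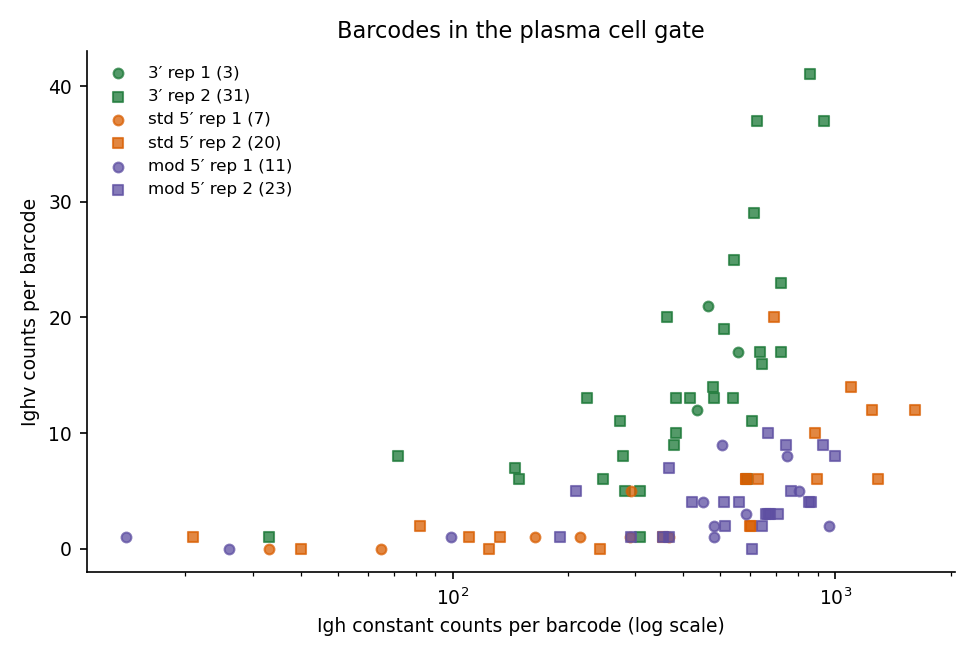
Ighv counts (vertical axis) against heavy-chain constant counts (horizontal axis, log scale) for each of the 95 plasma gate barcodes, with colour for the protocol and the number of barcodes per library in the legend. All barcodes with more than 20 Ighv counts are 3′ barcodes, up to 41, and below that the protocols overlap.

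The barcode with the most Ighv counts, in 3′ replicate 2, had 41 counts of Ighv1-9 and no other heavy variable gene, with 858 Ighm, 2581 Igkc and 24 Igkv3-2 counts. Next to it were 1 barcode with 37 counts of Ighv1-80 and 935 of Ighm, and 1 with 36 of Ighv1-12, 1 of Ighv1-52 and 623 of Ighm. Among the class-switched barcodes of this library, 17 and 14 counts of Ighv1-64 stood with 718 and 478 of Ighg2b in a pair of barcodes, both led by Igkv12-41 among the light variable genes. In another pair, Ighv1-39 and Ighv1-11 occurred together, with 13 and 6 counts in a barcode with 505 Ighg2c counts and with 10 and 1 in a barcode with 270. Ighv1-39 (chr12:114914599-114915032) and Ighv1-11 (chr12:114612243-114612675) are 78.1% identical. How reads were assigned between them was not tested. Coding positions 13 to 162 of both are shown, with their 39 differing bases in capitals.
Ighv1-11: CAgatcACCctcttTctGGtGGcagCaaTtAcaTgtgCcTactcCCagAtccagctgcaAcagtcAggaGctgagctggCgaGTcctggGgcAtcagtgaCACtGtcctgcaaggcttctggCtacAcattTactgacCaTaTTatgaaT
Ighv1-39: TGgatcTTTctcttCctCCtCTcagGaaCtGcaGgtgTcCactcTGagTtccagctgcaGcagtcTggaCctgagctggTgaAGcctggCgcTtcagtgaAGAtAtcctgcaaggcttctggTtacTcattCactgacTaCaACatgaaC
The pair Ighv1-12 and Ighv1-52 also occurred in a pair of barcodes of 3′ replicate 2, with 36 and 1 and with 19 and 1 counts. In standard 5′ replicate 2, Ighv1-9 with Ighv1-80 (7 and 5 counts) and Ighv3-6 with Ighv1-82 (9 and 3 counts) each shared a barcode. These barcodes and sequences were singled out after their values were seen.

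Some heavy and light variable genes recurred together. With at least 4 counts of both leading genes, 52 plasma gate barcodes made 44 heavy and light pairs, of which 8 were seen in more than 1 barcode. Ighv1-80 with Igkv4-55 was seen in 3′ replicate 2 (37 and 7 counts) and in standard 5′ replicate 2 (14 and 11 counts), and Ighv1-9 with Igkv3-2 in the same libraries (41 and 24, and 7 and 9 counts). Of the other repeated pairs, Ighv1-64 with Igkv12-41 was named above and the remaining 5 had Iglv1 as the light gene. Iglv1 led the light variable genes in 32 of the 95 barcodes, and 26 of these had more Igkc than Iglc counts, so that the light gene given for them is uncertain. The counts hold no junction sequence, so a shared pair of genes is not a shared clone.

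Gene by gene, few members were deep enough for a test between protocols. Counts were summed per library and tested with edgeR's quasi-likelihood test over all genes at an adjusted p of 0.05. In all kept cells, 12 of the 120 members passed the filter on low counts, all 12 from the leading 20 by usage. Against 3′, 0 of the 12 were called in standard 5′, where 10.8% of the 11546 genes tested were called lower. With the replicate number as a block, 4 were called lower (Ighv1-26, Ighv1-50, Ighv1-64 and Ighv2-5), beside 16.5% of all genes. In modified 5′, 1 was called lower, beside 8.19% of all genes, and 4 with the block (Ighv1-26, Ighv1-80, Ighv1-82 and Ighv8-8), beside 15.8%. Between modified and standard 5′, 0 were called in either direction, as were 0% of all genes. At an unadjusted p under 0.05 there were 2 in each of the 3 comparisons. DESeq2 also called 0 of the 12 between modified and standard 5′, and against 3′ it gave an adjusted p to 2 of the 12 in standard 5′, calling 0, and to 0 of the 12 in modified 5′. The median log2 fold change of the 12 was -0.98 for standard and -0.81 for modified 5′ against 3′ and 0.33 between them, with -0.01, -0.02 and -0.01 over all genes tested. The filter uses these same counts, so the 3′ libraries, highest in Ighv, helped to choose the 12. Ighv1-81, for example, had 10.9 and 7.28 CPM in 3′ and at most 4.64 in a 5′ library. The negative medians are therefore no separate support for a lower level in 5′.

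The member called in all kept cells was Ighv1-82, with 11.5 and 8.49 CPM in 3′, 2.73 and 6.19 in standard 5′ and 1.67 and 1.90 in modified 5′. Both 3′ values were above both modified 5′ values, on 20 and 21 against 2 and 4 counts. Ighv1-82 needed its 3′ levels to pass the filter on low counts, and without the plasma gate barcodes it was not tested. The log2 fold change of modified 5′ against 3′ was -2.06 ± 0.60 (SE; edgeR, adjusted p = 0.0415), and it lost the call with all deposited barcodes (adjusted p = 0.0517) and without either 3′ library, either modified library or standard 5′ replicate 2, with adjusted p from 0.0521 to 0.225.

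Within B-gated cells, 9 members passed the filter. Against 3′, 1 was called lower in standard 5′ and 2 in modified 5′, beside 16.6% and 15.3% of the 9415 genes tested, and with the replicate block 1 and 4, beside 16.1% and 17% of all genes. The block adds Ighv3-6 and Ighv8-8 in modified 5′. Counts of 1 and 2 among 9 members lie near those shares of all genes and say nothing particular about the members. Between modified and standard 5′, 0 of the 9 were called, beside 0.0637% of all genes in either direction, with 4 at an unadjusted p under 0.05. Without the plasma gate barcodes 6 members were tested in B cells, and the only one called was Ighv1-26, lower in modified 5′ than in 3′ (edgeR, log2 fold change -1.63 ± 0.55, adjusted p = 0.0194). Ighv1-80 and Ighv1-82, the members called in modified 5′, were not among the 6, so their calls could not be checked without these barcodes.

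Ighv1-64 had 23.7 and 22.5 CPM of the B cell counts in 3′, 6.66 and 5.66 in standard 5′ and 19.8 and 11.8 in modified 5′. The standard 5′ values were below both 3′ values, and the modified 5′ values lay between. It fell by 1.65 ± 0.59 on the log2 scale in standard 5′ (edgeR, adjusted p = 0.0314), on 1 and 6 counts against 19 and 29. The call was lost without the plasma gate, which removes the barcode with 17 of the 29 counts (adjusted p = 0.219), and without each of the 3′ and standard 5′ libraries in turn.

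Ighv1-82 had 21.2 and 15.5 CPM in the B cells of 3′, 6.66 and 10.4 in standard 5′ and 1.52 and 3.38 in modified 5′. It fell by 2.37 ± 0.64 in modified 5′ (edgeR, adjusted p = 0.00556), with no overlap between these groups, and 13 of the 20 counts of 3′ replicate 2 came from a single barcode. Ighv1-82 passed the filter on low counts only through its 3′ levels, so the test began from a gene chosen for being high in 3′. The adjusted p was 0.0829 without 3′ replicate 1, 0.0610 without modified 5′ replicate 1 and 0.0593 without modified 5′ replicate 2 (edgeR). Ighv1-80 had 7.47 and 34.2 CPM in 3′, 13.3 and 28.3 in standard 5′ and 1.52 and 7.61 in modified 5′. Its 3′ and modified 5′ values overlap, and 37 of the 44 counts in 3′ replicate 2 came from a single barcode. It fell by 1.76 ± 0.60 in modified 5′ (edgeR, adjusted p = 0.0262), but without 3′ replicate 2 the log2 fold change was -0.18 (adjusted p = 0.898), and without modified 5′ replicate 1 it was -1.26 (adjusted p = 0.125). Without 3′ replicate 2 it was also called higher in standard 5′ than in 3′ (edgeR, log2 fold change 2.04, adjusted p = 0.0402). DESeq2 gave no adjusted p for any member in these B cell comparisons, and its unadjusted p was 0.0736 for Ighv1-64, 0.0197 for Ighv1-82 and 0.0599 for Ighv1-80.

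The other genes of the antibody did not all move one way. Of 19 listed antibody genes (heavy and light constant genes, joining segments, Jchain, Cd79a and Cd79b), 14 were tested in all kept cells. Against 3′, standard 5′ had 3 higher (Cd79a, Cd79b and Iglc1) and 1 lower (Ighj4), and modified 5′ had 4 higher (Cd79a, Cd79b, Ighg3 and Iglc3) and 1 lower (Ighj4). Of all genes tested, 12.5% were higher and 10.8% lower in standard 5′, and 10.2% and 8.19% in modified 5′. Ighj4, the joining segment that follows the variable segment in the transcript, had 60 and 59 counts in 3′, 1 and 4 in standard 5′ and 8 and 8 in modified 5′. It fell by 3.32 ± 0.56 in standard and 2.17 ± 0.44 in modified 5′ on the log2 scale (edgeR, adjusted p 0.00528 and 0.0113), with both 3′ values above all 5′ values in CPM. In B cells, 8 of the 14 were higher and 3 lower in standard 5′, and 10 higher and 2 lower in modified 5′, Cd79a and Cd79b included, which set the gate. Of all genes tested in B cells, 13.7% were higher and 16.6% lower in standard 5′, and 12.9% and 15.3% in modified 5′. Ighm rose there by 1.12 ± 0.25 and 1.11 ± 0.25, and Igkc, the kappa constant gene, by 0.73 ± 0.24 and 0.84 ± 0.24 (edgeR, adjusted p 0.00108 and 0.00121, and 0.0177 and 0.00747). Ighm CPM in B cells was 3622 and 8511 in 3′, 9963 and 11490 in standard and 8246 and 12860 in modified 5′. Igkc CPM was 11480 and 29740, 26760 and 29160, and 27490 and 32040. Replicate 2 of 3′ overlapped the modified 5′ values for Ighm and those of both 5′ protocols for Igkc. Neither gene was called in all kept cells (edgeR, adjusted p 0.0712 and 0.127 for Ighm, 0.282 and 0.324 for Igkc). Between modified and standard 5′, 1 of the 14 was higher (Ighg3) and 1 lower (Iglc1) in B cells, beside 0.0637% of all genes in either direction. Class-switched genes such as Ighg3, with 1395 counts in modified 5′ replicate 1 and 1 to 27 in the others, vary with single libraries. Single plasma gate barcodes also held many lambda constant (Iglc) counts. The largest had 2662 in standard 5′ replicate 2, 1027 in standard 5′ replicate 1 and 1844 in 3′ replicate 1, beside 4486, 1700 and 3917 Iglc1 counts in these libraries. In modified 5′ replicate 1 it had 1168, beside 2785 Iglc3 counts. The calls of Iglc1 and Iglc3 may thus rest on few barcodes.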

How the data were processed

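Per the labels' protocols, unfragmented cDNA from 10x Genomics 3′ (v3.1) and 5′ (v2) kits was sequenced on a Nanopore instrument. The authors deposited raw counts per gene symbol and barcode, without normalization. The submitters' processing notes name mm10 and Seurat. Not given in the sources used here were the aligner, annotation, strand, cell calling, collapsing of molecular identifiers and the assignment of reads among near-identical Ighv genes.

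Cells under 200 genes or over 20% mitochondrial counts were dropped. No doublet caller was used, and doublets remain. Ighv symbols were matched to GENCODE M21 (all 120 matched), and identities come from edlib alignments of coding sequences. Sums per library were compared in edgeR 4.0.16 under R 4.3.3: quasi-likelihood test, TMM, filterByExpr, all 6 libraries, group as the only term, Benjamini-Hochberg adjustment over all genes at 0.05. Extraction text is shared by replicate number, and same-numbered libraries deviated together (correlations of deviations 0.456, 0.391 and 0.241 over 11546 genes), so the numbers are taken to pair the libraries. Blocked values are printed only where a call or a count of calls moves. Alternatives were RLE factors, no filter, DESeq2 1.42.0, the block, each library left out, all deposited barcodes, no plasma gate barcodes and a marker sum of at least 3. No library pair agreed within sampling noise (smallest chi-square per degree of freedom 3.58).

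The members and lists were chosen with earlier results of these data known. The named genes are the 20 with the highest mean share, those past the threshold, those with at least 50% of at least 20 counts in a barcode and 5 chosen for a known role. The minimum of 4 counts for heavy and light pairs and the sequence pairs shown were chosen after seeing the data.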

Additional observations from a re-analysis of the deposited data

How the results depend on the processing

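The differences in summed level between the 3′ and both 5′ protocols kept their direction under every alternative run; counts of called genes did not keep their size. With no filter on low counts the Ighv genes called were 6, 6 and 1 in all kept cells (standard against 3′, modified against 3′, modified against standard) and 3, 7 and 1 in B cells, over 118 and 113 members. Of these, 1 of the 6 in each comparison with 3′ in all kept cells was higher (Ighv2-4 in standard, Ighv1-78 in modified 5′) and all others were lower, beside 16.4%, 13.7% and 0.323% of all genes called in either direction in all kept cells and 14.7%, 14.1% and 0.199% in B cells. With the replicate block they were 4, 4 and 0, and 1, 4 and 0, and the block changed no other call of an Ighv gene. With all deposited barcodes 1 was called in standard and 0 in modified 5′ against 3′ in all kept cells. Without the plasma gate 0 were called in modified 5′ in all kept cells, and 0 in standard and 1 in modified 5′ in B cells. Ighv1-82 was not tested there in either cell set, nor was Ighv1-80 in B cells. Where every Ighv gene had an adjusted p of NA from DESeq2, no value is given.

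Leaving out each library in turn gave 0 to 1, 0 to 2 and 0 calls in all kept cells and 1 to 2, 1 to 5 and 0 to 1 in B cells. For standard against 3′ these include calls in the higher direction, Ighv1-80 without 3′ replicate 2 (log2 fold change 2.39, adjusted p = 0.0479 in all kept cells, and 2.04, 0.0402 in B cells; edgeR) and Ighv1-75 without standard 5′ replicate 2 (3.73, adjusted p = 0.0411 in B cells; edgeR). In these fits the lone library left in a group is assumed to vary like the others, and the filter keeps more genes. The median log2 fold change of tested members then ranged from -5.64 to -0.89 for standard against 3′, the lowest without standard 5′ replicate 2, and from -0.72 to 3.59 for modified against standard. The log2 ratio of CPM ranged from -1.70 to -0.95 for standard against 3′ and from -0.082 to 0.66 for modified against standard. Added after seeing the data, TMM-scaled sizes gave -0.89 and -0.67 against 3′. Per 100 constant counts, also added, the log2 ratio ranged from -2.52 to -1.44 and from -2.33 to -1.25, and without the plasma gate it was -1.31 for modified against 3′. The difference in percent of B cells with an Ighv count ranged from -17.9 to -9.14 and from -14.7 to -5.91 percentage points, and thinned to 300 counts it was -7.20 and -5.78. Cells of fewer counts are left out there, and each draws fewer counts; the cause of the other changes was not tested. Of 27 mean usages, 26 moved by less than the spread between replicates when counted by led cells outside the plasma gate and 27 without the leading barcode of each library. That spread includes standard 5′ replicate 1 with its 37 Ighv counts and is wide for several leading genes, so staying within it does not show stable usage. Ighv1-80 stayed within it while going from 6.76% to 2.92% by led cells.

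Limits are the 37 Ighv counts of standard 5′ replicate 1, 2 libraries per protocol, near-identical genes and single antibody-rich barcodes.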
